A study of Mus musculus with 4 samples.

Results

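Neutrophil granule genes were followed in RNA from mouse LSK cells, a fraction without lineage markers that carries Kit and Sca-1 and holds blood stem cells and their earliest progeny. The members are a list of 10 genes, 4 of primary granules (Mpo, Elane, Prtn3 and Ctsg) and 6 made later (Ngp, Ltf, Camp, Lcn2, S100a8 and S100a9), among 45232 gene rows. They were listed by name, and all 10 were among the 15320 genes kept by the filter on low counts. No member had fewer than 1542 counts in a library, so the filter did not decide which were tested. The cells were GFP-positive LSKs sorted 3 months after transplantation of GFP-positive long-term haematopoietic stem cells. The grafted stem cells had either the scrambled control, called Scr, or the knockdown of a microRNA, called miR-99 KD, with 2 mice and 2 libraries in each group. The sources used here do not give the strain, sex or age of the mice, or the vector of the knockdown, and miR-99 itself is not measured by these gene counts. Whether each library came from 1 mouse is not stated either, so p-values measure the spread between these libraries, which may be partly technical.

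Neutrophils are filled with granules that are made in order as the cell matures. Primary, or azurophil, granules form first, at the promyelocyte stage, and hold myeloperoxidase and serine proteases. Secondary, or specific, granules form afterwards, at the myelocyte stage, and hold lactoferrin, lipocalin and the cathelin-related proteins. S100a8 and S100a9 are calcium-binding proteins that lie mostly in the cytosol and build up at the same later stages. Granule contents are packed when they are made, so the mRNAs mark the stage of the cell and not the protein it carries. Mpo and the proteases are also transcribed in myeloid-primed progenitors, whereas the later genes are textbook genes of maturing neutrophils.

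Some members lie close together in the genome, in RefSeq's annotation of GRCm38.p6. Elane and Prtn3 are neighbours on chromosome 10, with start sites 6.65 kb apart on the same strand. S100a8 and S100a9 lie on chromosome 3 with start sites 26.7 kb apart, on opposite strands. Ngp, Ltf and Camp are all on chromosome 9, with Camp and Ltf 1.17 Mb apart and Ngp between them. The sequences below are shown because the members of a set varied together, and they come from RefSeq's promoters of GRCm38.p6, where 10 of 10 members had an entry. They start 250 bases before the RefSeq start site and stop at the first base transcribed in GENCODE M21. Those of the neighbouring pair are at chr10:79886062-79886246 (plus strand) for Elane and chr10:79879417-79879613 (plus strand) for Prtn3. Those of the later genes with the highest CPM are at chr9:110419558-110419746 (plus strand) for Ngp and chr9:111019042-111019270 (plus strand) for Ltf. Capitals mark GAGGAA, a core of PU.1 sites, and TTGCNNAA, a core of C/EBP sites, each on either strand.
Elane: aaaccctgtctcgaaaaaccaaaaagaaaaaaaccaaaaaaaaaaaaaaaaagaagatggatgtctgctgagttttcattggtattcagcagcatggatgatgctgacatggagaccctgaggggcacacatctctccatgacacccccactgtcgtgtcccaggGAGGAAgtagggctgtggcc
Prtn3: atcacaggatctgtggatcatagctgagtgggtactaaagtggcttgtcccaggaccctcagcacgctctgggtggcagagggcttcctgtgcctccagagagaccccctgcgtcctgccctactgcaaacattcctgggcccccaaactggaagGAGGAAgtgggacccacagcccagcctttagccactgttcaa
Ngp: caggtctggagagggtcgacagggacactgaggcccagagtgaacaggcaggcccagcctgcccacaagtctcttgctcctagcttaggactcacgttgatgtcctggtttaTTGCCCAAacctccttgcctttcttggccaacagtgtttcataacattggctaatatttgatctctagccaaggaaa
Ltf: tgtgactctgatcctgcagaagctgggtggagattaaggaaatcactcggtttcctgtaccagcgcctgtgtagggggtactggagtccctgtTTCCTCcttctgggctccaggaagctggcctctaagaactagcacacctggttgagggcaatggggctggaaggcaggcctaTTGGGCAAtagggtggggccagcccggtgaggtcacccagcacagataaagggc

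Both motifs were counted in the 250 bases before the RefSeq start site of every promoter. In GENCODE M21, part of this window is already transcribed for all members but Ctsg and S100a9. For Mpo 47 of the 250 bases lie before the first base transcribed there, and for Camp 89. GAGGAA, searched on both strands, was found in 4 of 4 primary genes and in 3 of 6 later genes (Ltf, Lcn2 and S100a8), and in 23.3% of 32851 promoters. In Elane and Prtn3 it began 85 and 95 bases before the start site, and in both it was followed by GT. TTGCNNAA, searched on both strands, was found in 0 of 4 primary genes and in 4 of 6 later genes (Ngp, Ltf, Lcn2 and S100a9), and in 9.56% of promoters. In Ngp it occurred 138 and 11 bases before the start site, and in Ltf 75 bases before it, and the nearer match in Ngp lies past the end of the sequence shown. Of the other motifs searched on both strands, AACNG of Myb sites was in all 10 members but also in 74.2% of promoters. TGTGGT of RUNX sites was in Ctsg and S100a9 against 14% of promoters, and TATAAA of TATA boxes in Ctsg and S100a8 against 12.4%. In Ctsg the TATAAA match began 237 bases before the start site. The Myb motif shared 1 base with the PU.1 motif in Ltf and 2 bases with the C/EBP motif in Lcn2. In GENCODE M21, the GAGGAA match of Lcn2, 20 bases before the RefSeq start site, lies in transcribed bases. So does the TATAAA match of S100a8, 30 bases before its start site. A match is a description of the letters only.

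Libraries held 27295197 to 32350590 gene counts, which makes counting error small for every member. The sort markers were present in all 4 libraries. Kit stood at 1149 and 1280 CPM in Scr and at 670 and 774 CPM in miR-99 KD. CPM is the count per 1000000 counts of the library, with library sizes scaled by trimmed means (TMM). Ly6a, which encodes Sca-1, stood lower, at 46.5 and 22.8 CPM in Scr against 12.4 and 22.3 CPM in miR-99 KD. The 8 LSK and stem cell markers together held 2320 and 2827 CPM in Scr against 1235 and 1245 CPM in miR-99 KD. DESeq2 called 6 of them lower and edgeR 0. Of all genes given an adjusted p, DESeq2 called 7.09% in either direction and edgeR 0%. In bulk RNA of this kind, fewer cells of a type and less RNA per cell cannot be told apart.

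Granule genes were abundant in these sorted cells, and 1 library stood apart. In Scr 1 the 10 members took 0.855% of gene counts (95% Wilson interval 0.852 to 0.859), and in Scr 2 they took 0.639% (0.636 to 0.641). The share was 2.8% for miR-99 KD 1 (2.79 to 2.81), and miR-99 KD 2 had 0.515% (0.512 to 0.517). These intervals cover counting error only. All 10 members were highest in miR-99 KD 1. For this count, and for those of the lists below, the share of all genes highest in that library was not taken. The 4 primary genes were all lowest in miR-99 KD 2, whereas the 6 later genes were all lowest in Scr 2. The plot of CPM by gene and library shows both orders.

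**Figure D1:**
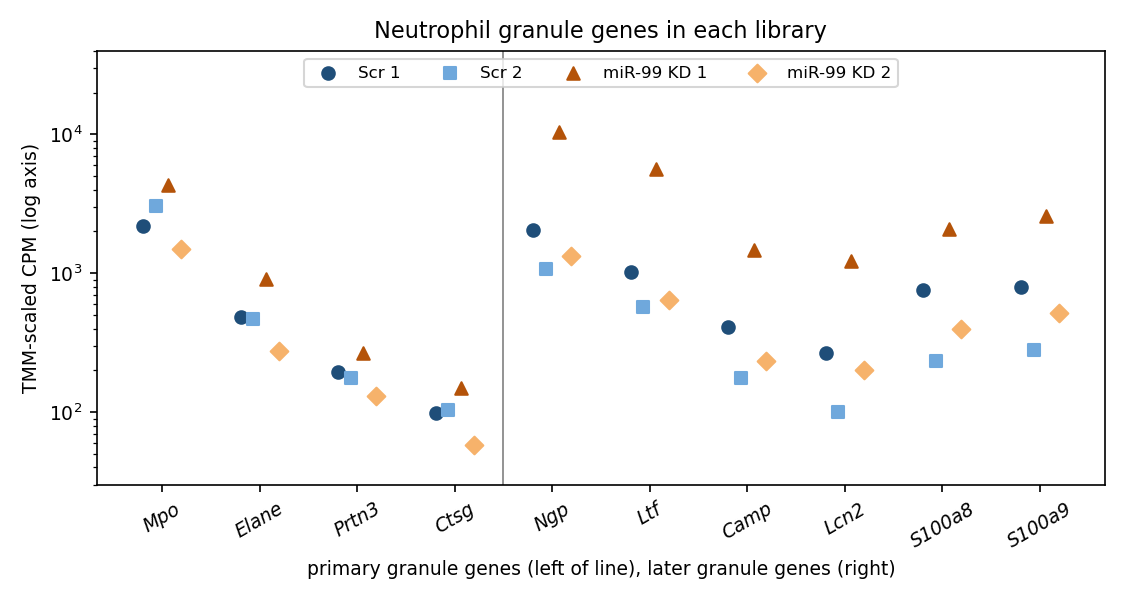
CPM after TMM scaling of the 10 members (log axis), with 1 point per library: primary granule genes left of the line and later ones right. The miR-99 KD 1 library is the highest point for all 10 genes, and the lowest point is miR-99 KD 2 for primary and Scr 2 for later genes.

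Mpo, the haem peroxidase that makes hypochlorous acid, stood at 2198 CPM in Scr 1 and 3043 in Scr 2, with 4300 CPM for miR-99 KD 1 and 1500 for miR-99 KD 2. Pairs of values below follow this order, replicate 1 before replicate 2. The Scr libraries lay between the miR-99 KD libraries, so the groups overlapped. The log2 difference, miR-99 KD minus Scr, came to 0.15 ± 0.50 (SE, n = 2 per group), and edgeR's quasi-likelihood test gave an adjusted p of 0.910. Elane, the elastase of neutrophils, stood at 482 and 470 CPM in Scr and at 904 and 274 CPM in miR-99 KD. The Scr libraries nearly coincided and the miR-99 KD libraries lay on either side of them. The difference was 0.31 ± 0.53 on the log2 scale, with an edgeR adjusted p of 0.809.

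Prtn3, proteinase 3, and Ctsg, cathepsin G, are serine proteases of the same granules and had the same libraries at the top and the bottom. Prtn3 stood at 196 and 176 CPM in Scr and at 269 and 131 CPM in miR-99 KD. Ctsg, the lowest of the primary genes, stood at 98.6 and 103 CPM in Scr and at 149 and 58.1 CPM in miR-99 KD. The log2 differences of both were 0.10 ± 0.34 and 0.04 ± 0.43 (SE, n = 2 per group), with edgeR adjusted p of 0.909 and 0.976. In all 4 primary genes the Scr pair was closer than the miR-99 KD pair. The Scr libraries differed by at most 0.47 on the log2 scale, in Mpo, and the miR-99 KD libraries by 1.03 to 1.72.

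Later genes spread more widely. Ngp, a cathelin-related protein of secondary granules, stood at 2048 and 1078 CPM in Scr and at 10390 and 1337 CPM in miR-99 KD. The miR-99 KD 2 library lay between the Scr libraries. The log2 difference came to 1.91 ± 0.93 (SE, n = 2 per group), with an edgeR adjusted p of 0.383. Ltf, lactoferrin, which binds iron, stood at 1019 and 571 CPM in Scr and at 5622 and 641 CPM in miR-99 KD. This was the widest span of the 10 members within a group, 8.77-fold between the miR-99 KD libraries. For Ltf the log2 difference came to 1.98 ± 0.97, with an edgeR adjusted p of 0.383.

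Camp, the precursor of the cathelicidin peptide that kills bacteria, stood at 412 and 176 CPM in Scr and at 1464 and 235 CPM in miR-99 KD. Lcn2, a lipocalin that withholds bacterial siderophores, stood at 267 and 101 CPM in Scr and at 1220 and 201 CPM in miR-99 KD. Both had the order of Ngp, with miR-99 KD 2 between the Scr libraries. Their log2 differences were 1.53 ± 0.88 and 1.95 ± 0.91 (SE, n = 2 per group), with edgeR adjusted p of 0.444 and 0.370.

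The S100 pair encodes both chains of calprotectin, which binds zinc and manganese. S100a8 stood at 754 and 233 CPM in Scr and at 2067 and 397 CPM in miR-99 KD. S100a9 stood at 797 and 279 CPM in Scr and at 2579 and 519 CPM in miR-99 KD. Again miR-99 KD 1 was far above the rest and miR-99 KD 2 lay between the Scr libraries. Their log2 differences were 1.32 ± 0.89 and 1.52 ± 0.85 (SE, n = 2 per group), with edgeR adjusted p of 0.507 and 0.431.

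No member passed the test of the group difference. edgeR called 0 of 10 at an adjusted p of 0.05, and it called 0 of all 15320 genes, a background of 0%. At an unadjusted p under 0.05 it counted 0 of 10 members, against 15.6% of all genes. DESeq2 also called 0 of 10, against 7.09% of the 12646 genes to which it gave an adjusted p. The groups were apart with miR-99 KD on top in 0 of 10 members, against 24.5% of all genes, and with Scr on top in 0 of 10, against 26% of all genes. The median log2 difference was 0.12 over the primary set and 1.72 over the later set, against 0.02 over all genes tested.

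Members differed widely between libraries of the same group. In miR-99 KD 1, all 10 members were over 2-fold above miR-99 KD 2, against 11.2% of all genes tested. These folds ran from 2.05 to 3.30 in the primary set and from 4.97 to 8.77 in the later set. In Scr 1, 4 of 10 members were over 2-fold above Scr 2, against 8.85% of all genes tested. The 4 were Camp, Lcn2, S100a8 and S100a9, and the later set ran from 1.78-fold to 3.24-fold. The primary set ran from 0.722-fold to 1.11-fold between the same Scr libraries. These comparisons set 1 library against 1, so they carry no test.

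The direction of members depended mostly on miR-99 KD 1: leaving it out gave 9 of 10 a negative value, and without miR-99 KD 2 all 10 stayed positive. Without Scr 1, Mpo and Ctsg also turned slightly negative, at -0.09 ± 0.66 and -0.01 ± 0.60. Without miR-99 KD 1, edgeR called 3 of 10 members, against 6.15% of all genes, and each was lower. Mpo was lower by a log2 difference of -0.81 ± 0.18, Elane by -0.80 ± 0.15 and Ctsg by -0.80 ± 0.18 (SE, 2 Scr libraries and 1 miR-99 KD library). Their edgeR adjusted p were 0.0397, 0.0278 and 0.0406. Without miR-99 KD 2, edgeR called 5 of 10, against 2.66% of all genes, and each was higher. These were Elane at 0.93 ± 0.13, Ngp at 2.74 ± 0.29, Ltf at 2.82 ± 0.27, Camp at 2.32 ± 0.39 and Lcn2 at 2.74 ± 0.45, with edgeR adjusted p of 0.0101 to 0.0353. Elane therefore passed in both fits in opposite directions. In each of them the lone miR-99 KD library is assumed to vary like the Scr pair.

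Without miR-99 KD 1, the median log2 difference was -0.80 in the primary set and -0.27 in the later set. Lcn2 was the member that stayed positive, at 0.13 ± 0.44. Leaving out a Scr library gave later medians of 2.44 (without Scr 1) and 1.23 (without Scr 2). Whether members were called also depended on the filter. With no filter on low counts edgeR called all 6 later genes higher, with adjusted p of 6.2e-05 to 0.0084, against 4.18% of 25446 genes.

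**Figure D2:**
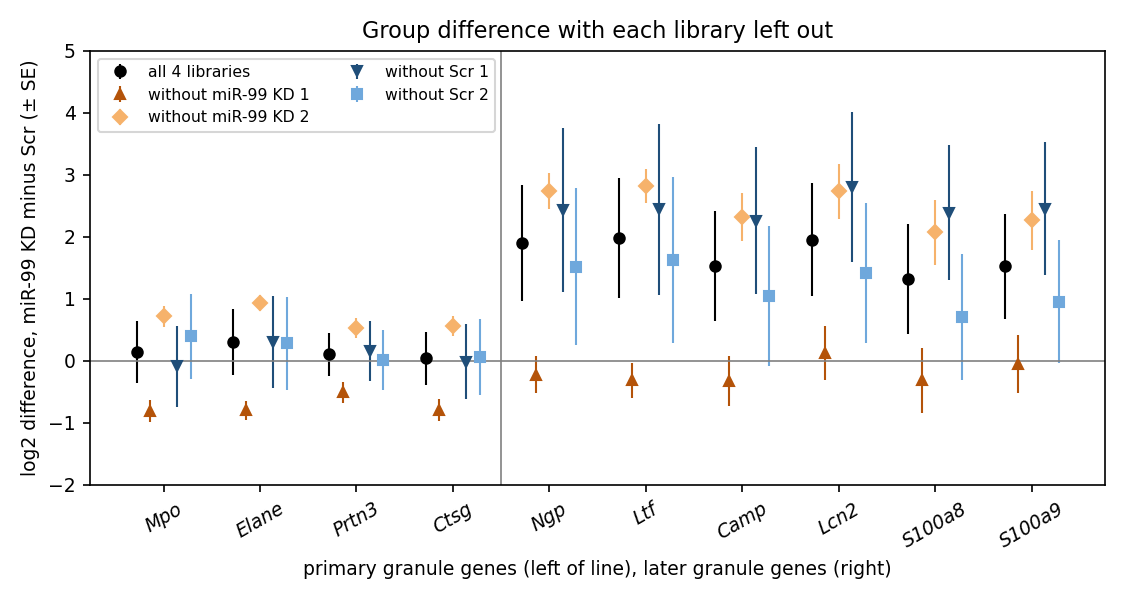
Log2 difference, miR-99 KD minus Scr, of each member from edgeR with all 4 libraries and with each library left out, with bars of ± SE of the fit. The 4 primary genes lie near 0 with all libraries and below it without miR-99 KD 1, and the later genes lie above 0 except without miR-99 KD 1, where only Lcn2 does.

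The ratio of the sets was compared in each library. The summed CPM of the 4 primary genes was 2974 and 3792 for Scr 1 and 2, and 5621 and 1963 for miR-99 KD 1 and 2. That of the 6 later genes was 5296, 2438, 23343 and 3329 in the same order. Later over primary was therefore 1.78 and 0.643 for Scr 1 and 2, and 4.15 and 1.70 for miR-99 KD 1 and 2. Scr 1 and miR-99 KD 2 had nearly the same ratio, with Scr 2 below and miR-99 KD 1 above.

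On the log2 scale the ratio was 0.10 ± 1.04 in Scr and 1.41 ± 0.91 in miR-99 KD (mean ± SD, n = 2), so the groups overlapped and the difference of 1.31 was close to the spread within a group. An exact two-sided permutation of 2 against 2 libraries cannot give a p below 0.333, and no test was run. Between the libraries of a group the ratio differed 2.77-fold in Scr and 2.45-fold in miR-99 KD. Per kilobase of transcript, which is the scale on which different genes can be set against each other, the ratio was 3.87, 1.36, 8.17 and 3.73. These sums are over 6 later and 4 primary genes. As a mean per gene, later over primary per kilobase was 2.58 and 0.905 in Scr against 5.45 and 2.49 in miR-99 KD, so Scr 2 had the lower level per gene in the later set and the other libraries the higher.

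**Figure D3:**
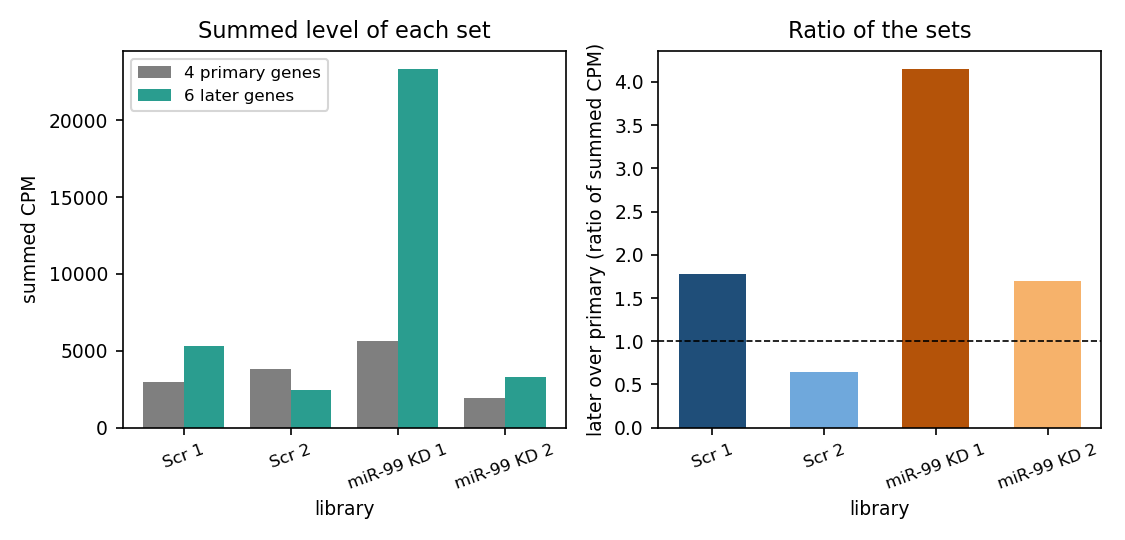
Left, summed CPM of the 4 primary and the 6 later genes in each library; right, the ratio of these sums, with the dashed line at 1. The ratio is 0.643 in Scr 2, 1.78 in Scr 1, 1.70 for miR-99 KD 2 and 4.15 for miR-99 KD 1.

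Proportions within a set varied between libraries, some more than others. Mpo made up 73.9% to 80.2% of the summed CPM of the primary set in the 4 libraries, Elane 12.4% to 16.2%, Prtn3 4.65% to 6.68% and Ctsg 2.64% to 3.31%. Prtn3 over Elane, a ratio of CPM, ran from 0.297 to 0.478. Ngp made up 38.7% to 44.5% of the later set, Ltf 19.2% to 24.1%, Camp 6.27% to 7.77% and Lcn2 4.13% to 6.03%. The ratio of Ltf over Ngp was 0.497 and 0.530 in Scr against 0.541 and 0.480 in miR-99 KD. Ltf over Lcn2 varied more, from 3.20 to 5.67, and so did S100a8 over Ngp, from 0.199 to 0.368. The S100 pair had 29.3% and 21.0% of the later set for Scr 1 and 2, and 19.9% and 27.5% for miR-99 KD 1 and 2. S100a8 over S100a9 was 0.946, 0.833, 0.802 and 0.765 in the same order. These proportions share their libraries, and no test was made of them.

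Ranks by level per length differed widely among members. Among the genes tested, Ngp ranked 9 and 11 (of 15257 with a length) by CPM per kilobase in the Scr libraries, and 1 and 16 for miR-99 KD 1 and 2. S100a9 and S100a8 ranked 2 and 3 in miR-99 KD 1, with 4940 and 4254 CPM per kilobase against 8503 for Ngp. In Scr 2 they ranked 37 and 49. Mpo, the primary gene with the highest level per length, ranked 29 and 7 in Scr against 16 and 55 in miR-99 KD. Prtn3 ranked from 175 in miR-99 KD 1 to 623 in the second miR-99 KD library. Ctsg had the lowest level per length of the members in every library and ranked from 476 in miR-99 KD 1 to 1778 in miR-99 KD 2.

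Other genes of the early stage gave a mixed picture. Of 10 further promyelocyte-stage and primary granule genes, edgeR called 0 in either direction. At an unadjusted p under 0.05 it counted 1 higher and 1 lower, against 15.6% of all genes in either direction. DESeq2 called 1 of the 10, lower, against 7.09% of genes in either direction. This was Nkg7, a granule protein of cytotoxic cells also made by early myeloid cells. It stood at 207 and 194 CPM in Scr and at 146 and 114 CPM in miR-99 KD, and its adjusted p was 0.0315 by DESeq2 but 0.233 by edgeR. Serpinb1a, an inhibitor of neutrophil proteases, stood at 293 and 295 CPM in Scr and at 369 and 158 CPM in miR-99 KD, with the Scr libraries between the others. Srgn, the proteoglycan core that holds proteases in granules, did not have that pattern, at 609 and 400 CPM in Scr against 391 and 445 CPM in miR-99 KD. Calr, a chaperone that folds myeloperoxidase, stood at 991 and 895 CPM in Scr against 1198 and 1248 CPM in miR-99 KD. Plac8 stood at 192 and 231 CPM in Scr and at 251 and 186 CPM in miR-99 KD. The median log2 difference of the list was -0.03, and 6 of 10 were highest in miR-99 KD 1.

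Further later granule genes were also mostly highest in miR-99 KD 1. Of 16, edgeR called 0 and DESeq2 0, against 0% and 7.09% of all genes. The groups overlapped in all 16, and 15 were highest in miR-99 KD 1. Over all genes, the groups were apart with miR-99 KD on top in 24.5% and with Scr on top in 26%. The median log2 difference of the 16 was 1.38. Lyz2, the lysozyme of myeloid cells, stood at 1214 and 457 CPM in Scr and at 3620 and 610 CPM in miR-99 KD. Chil3, a chitinase-like protein, stood at 438 and 284 CPM in Scr and at 2136 and 405 CPM in miR-99 KD. Cd177, a surface protein of neutrophils, stood at 153 and 88.1 CPM in Scr and at 743 and 66.2 CPM in miR-99 KD. Anxa1, a phospholipid-binding protein of gelatinase granules, stood at 393 and 319 CPM in Scr and at 1184 and 195 CPM in miR-99 KD. Cybb, the catalytic chain of the NADPH oxidase, stood at 133 and 69.1 CPM in Scr and at 529 and 88.3 CPM in miR-99 KD.

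In 11 of these 16 genes the lowest library was miR-99 KD 2, and in 5 it was Scr 2, which was the lowest for all 6 later members. The metalloproteinases Mmp8 and Mmp9, named after their values were seen, were lowest in miR-99 KD 2. Mmp8 stood at 79.6 and 41.7 CPM in Scr and at 318 and 9.41 CPM in miR-99 KD, and Mmp9 at 119, 39.1, 330 and 16.04 CPM in the same order. Olfm4, a granule protein of some neutrophils and also named after its values were seen, was at 13.99, 2.27 and 15.3 CPM in the first 3 libraries and had 0 counts in miR-99 KD 2.

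Surface genes of mature neutrophils stood low. Of 7, edgeR and DESeq2 called 0, against 0% and 7.09% of all genes, and 6 were highest in miR-99 KD 1. Ly6g, the antigen that defines mouse neutrophils, stood at 6.72 and 2.88 CPM in Scr and at 33.7 and 6.25 CPM in miR-99 KD. Cxcr2, a chemokine receptor, stood at 8.46 and 3.47 CPM in Scr and at 25.2 and 3.43 CPM in miR-99 KD. C5ar1, the receptor for complement C5a, stood at 20.4 and 8.0 CPM in Scr and at 71.5 and 6.40 CPM in miR-99 KD. Csf3r, the receptor of G-CSF that progenitors carry too, did not stand out in miR-99 KD 1, at 142 and 139 CPM in Scr against 132 and 46.0 CPM in miR-99 KD. Il1r2, a decoy receptor for interleukin-1, stood at 6.40 and 4.22 CPM in Scr and at 18.3 and 2.07 CPM in miR-99 KD.

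Among 8 transcription factors of granule genes, edgeR and DESeq2 called 0, against 0% and 7.09% of all genes. Spi1, which encodes PU.1, stood at 112 and 113 CPM in Scr and at 189 and 67.7 CPM in miR-99 KD. Myb stood at 666 and 652 CPM in Scr and at 678 and 847 CPM in miR-99 KD. Runx1 stood at 114 and 108 CPM in Scr and at 93.1 and 102 CPM in miR-99 KD, and its partner Cbfb at 251 and 283 CPM in Scr and at 213 and 185 CPM in miR-99 KD. Cebpd stood at 17.3 and 14.4 CPM in Scr and at 57.5 and 14.5 CPM in miR-99 KD. Cebpe, the factor that drives secondary granule genes and named here after its values were seen, stood at 10.04 and 9.82 CPM in Scr and at 63.8 and 8.92 CPM in miR-99 KD. Its 3 low libraries were nearly equal, while the later members differed between the Scr libraries. The log2 difference of Cebpe came to 1.87 ± 0.87 (SE, n = 2 per group), with an edgeR adjusted p of 0.368.

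**Figure D4:**
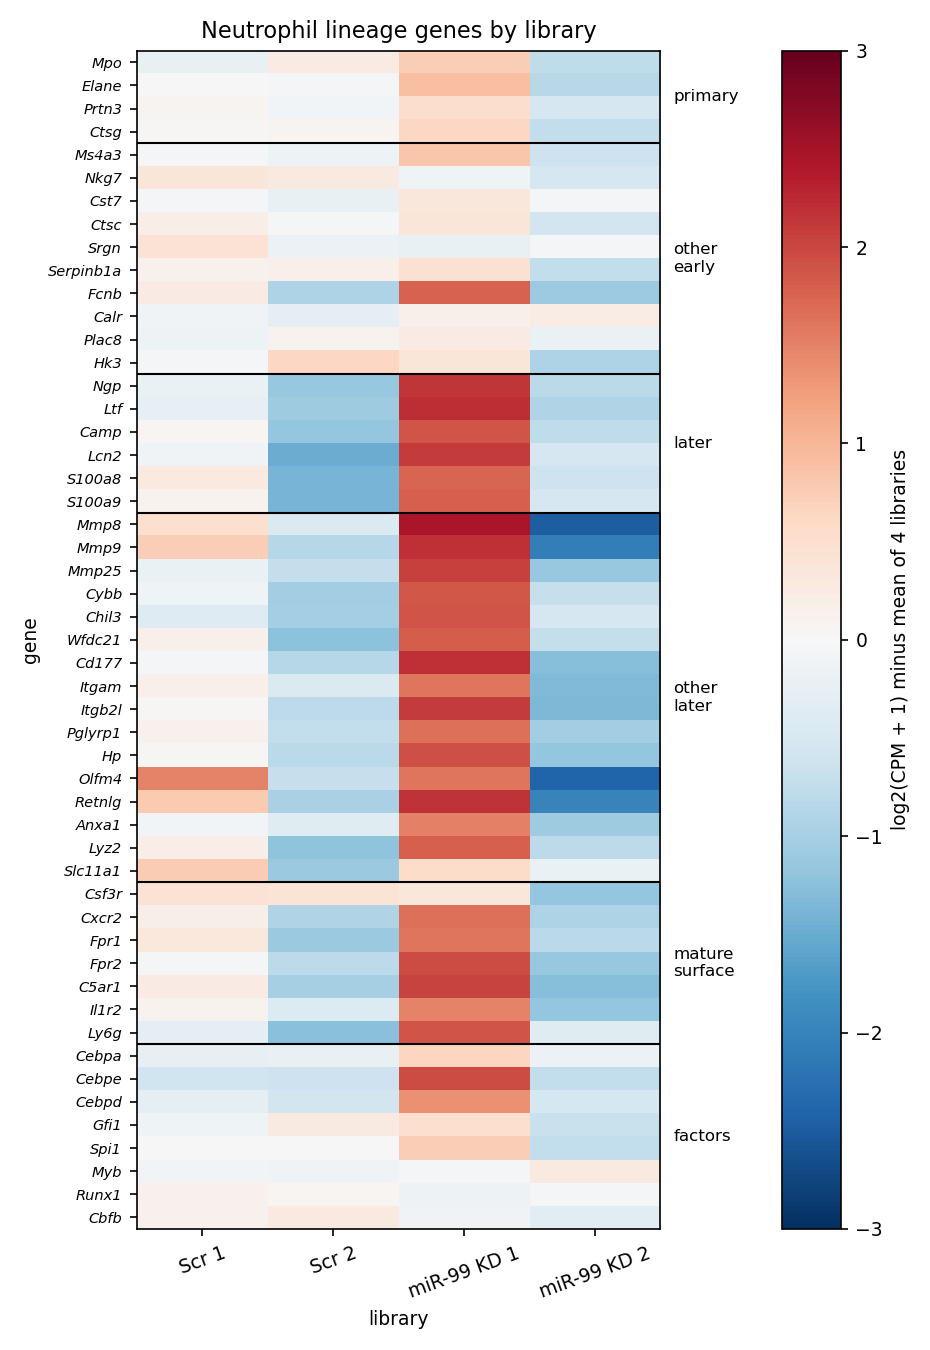
Colour shows log2(CPM + 1) minus the mean over the 4 libraries for the members, 26 further granule genes, 7 mature surface genes and 8 transcription factors, with 1 column per library. The later members and most of the further later genes are high in miR-99 KD 1, and the primary members vary less in the same library.

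The genes whose pattern was most like that of the sets were taken over the 4 libraries, from 9492 genes with a mean of at least 10 CPM. Likeness was the Euclidean distance between log2(CPM + 1) profiles centred on each gene. The nearest genes to the mean primary profile were Spi1 (distance 0.0697), Mxd3 (0.0896), Ebi3 (0.105), Tirap (0.109), Tcp11l2 (0.118) and Ralb (0.127). The primary members themselves lay at 0.109 to 0.315. Nearest to the later profile were Ifitm6 (0.133), I830127L07Rik (0.215), Wfdc21 (0.232), Cybb (0.275), Plbd1 (0.307) and B430306N03Rik (0.314), with the later members at 0.175 to 0.447. Of non-member genes, 60 lay nearer to the primary profile than its farthest member and 13 nearer to the later profile. With 4 points per profile this is a description only.

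Markers of several other cell types were also high in miR-99 KD 1. Eosinophil markers, a list of 6, summed to 2.51 and 2.64 CPM in Scr and to 154 and 0.489 CPM in miR-99 KD. Prg2, a granule protein of eosinophils, stood at 2.03 and 0.790 CPM in Scr and at 120 and 0.301 CPM in miR-99 KD. The second of these libraries had 0 counts for 4 of the 6, Epx (eosinophil peroxidase) among them. Prss34, a protease of basophils, stood at 33.1 CPM in miR-99 KD 1 and at 0.149 CPM in Scr 1, with 0 counts in the other libraries. The 5 mast cell and basophil markers summed to 57.7 and 40.0 CPM in Scr against 116 and 91.5 CPM in miR-99 KD. This list was split: Mcpt8 and Ms4a2, like Prss34, were highest in miR-99 KD 1. Cpa3 and Fcer1a instead peaked in the other miR-99 KD library. Cpa3 stood at 45.0 and 31.7 CPM in Scr against 44.5 and 75.8 CPM in miR-99 KD. Fcer1a stood at 7.17, 0.687, 4.43 and 7.64 CPM in the same order.

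B cell markers, a list of 7, were all highest in miR-99 KD 1, with sums of 70.8 and 35.9 CPM in Scr against 247 and 77.3 CPM in miR-99 KD. DESeq2 called 3 of these 7 higher and edgeR 0, against 7.09% and 0% of genes in either direction. In 4 of the 7 both miR-99 KD values were over both Scr values, against 24.5% of all genes. The 8 monocyte and macrophage markers summed to 379 and 175 CPM in Scr and to 528 and 269 CPM in miR-99 KD. This list was split: 4 were highest in miR-99 KD 1 and 4 in Scr 1, namely Adgre1, C1qa, C1qb and C1qc. The 7 mature neutrophil surface genes summed to 195 and 161 CPM in Scr and to 319 and 68.1 CPM in miR-99 KD. Of these sums Csf3r, which progenitors carry too, held 142 and 139 CPM in Scr and 132 and 46.0 CPM in miR-99 KD. T and NK cell markers, a list of 6, summed to 0.807 and 0.721 CPM in Scr against 5.04 and 0.602 CPM in miR-99 KD, with Ncr1 at 0 counts in all 4. The 6 erythroid markers summed to 4368 and 3778 CPM in Scr against 6446 and 7150 CPM in miR-99 KD. The sum was therefore not highest in miR-99 KD 1. DESeq2 called 2 of the 6 higher and edgeR 0, against the same 7.09% and 0% of genes. The part of such cells in the levels of the granule genes was not tested.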

How the data were processed

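Total RNA from sorted LSK cells was amplified with SMARTer, per the labels' protocols. Each deposited file holds unnormalized counts of reads for every Ensembl gene. The tools named in the submitters' processing notes are STAR, Picard, HTSeq and DESeq2, with build mm9. The sources used here give no versions, strand setting or annotation, so reads of a gene and of its antisense partner may be mixed. PCR copies cannot be told apart without molecular identifiers. Rows that name no gene were left out; 8.31% to 13.8% of reads fell outside genes and 18.0% to 21.9% had several alignments. The pasted rows of 3 files name a library number other than the label's. Those of both miR-99 KD files also name a Scr library, Scr-2 for miR-99 KD 1 and Scr-1 for miR-99 KD 2. Libraries were grouped by the labels.

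Symbols matched 44585 of 45232 rows (GENCODE M21). Merged exons of its basic transcripts gave lengths. The main test was edgeR 4.0.16 (R 4.3.3), quasi-likelihood, with filterByExpr, TMM scaling, Benjamini-Hochberg adjustment at 0.05 over 15320 genes and no replicate block. SEs are those of the fit. DESeq2 1.42.0 left 2674 genes without an adjusted p. Alternatives were DESeq2, limma-voom (limma 3.58.1), other scalings and filters, a replicate block and leaving out each library. The tests were tried on simulated counts. Members and lists were chosen with earlier results of these data known. All members were named, with the 5 genes of highest mean CPM in each further list, the sort markers and the 6 nearest genes per set. All other genes, single markers of other cell types included, were named after their values were seen. A gene of the mature surface list is not reported here. Promoters are those of RefSeq's GRCm38.p6, a later build than mm9.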

Additional observations from a re-analysis of the deposited data

How the results depend on the processing

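DESeq2 with a block or without single libraries, and the overlap counts, were added once the data had been seen. For each change below, the cause was not tested. The lowest count of a member in a library was 1542, and the part of depth in the spread between libraries was not tested. Of all genes, edgeR called 0, DESeq2 896 and edgeR with no filter 1064. Leaving out each library gave 0 to 1013 with edgeR. DESeq2 gave 129 without Scr 1, 27 without Scr 2, 1547 on leaving out miR-99 KD 1 and 840 on leaving out the other miR-99 KD library. Of the members, 0 were called, 6 with no filter, and 0 to 5 on leaving out each library. DESeq2 called 3 without miR-99 KD 1 (Mpo, Elane and Ctsg, lower), against 11.4% of genes, and 4 without miR-99 KD 2 (Mpo, Elane, Ngp and Ltf, higher), against 6.19%. With no filter the median log2 difference of all genes was -0.11, and with library totals alone -0.07, where 79.1% of genes at an unadjusted p under 0.05 were lower, against 61.7%. On leaving out each library the primary median ran from -0.80 to 0.64 and the later one from -0.27 to 2.53, with DESeq2 at -0.80 and -0.27 without miR-99 KD 1.

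The deviations of same-numbered libraries correlated at 0.11 over all genes, and 2 such pairs did not show that the numbers pair the samples. With the replicate block edgeR called 0 genes and 0 members, but 6 of 10 members had an unadjusted p under 0.05, as did 2049 of 15320 genes, and the primary and later medians were -0.0060 and 1.30. DESeq2 with the replicate block called 391 genes, or 2.89%, and 4 members (Camp, Lcn2, S100a8 and S100a9). Later over primary was 2.33-fold higher in miR-99 KD 1 than in Scr 1 and 2.64-fold higher in miR-99 KD 2 than in Scr 2. Taken across the numbers, miR-99 KD 2 (1.70) lay just below Scr 1 (1.78), and miR-99 KD 1 (4.15) lay above Scr 2 (0.643).

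Log2 differences of primary genes near 0 changed sign. Mpo was -0.025 with limma-voom, -0.026 with the replicate block and -0.027 with the block in DESeq2. Ctsg was -0.12 with limma-voom, -0.052 with library totals alone, -0.11 with the replicate block and -0.12 with the block in DESeq2. On leaving out each library, edgeR gave -0.81 to 0.72 for Mpo, -0.80 to 0.93 for Elane, -0.51 to 0.53 for Prtn3 and -0.80 to 0.56 for Ctsg. The ranges were -0.23 to 2.74 for Ngp, -0.31 to 2.83 for Ltf, -0.33 to 2.32 for Camp, -0.31 to 2.39 for S100a8 and -0.054 to 2.46 for S100a9. Without Scr 1, edgeR gave -0.088 for Mpo and -0.012 for Ctsg, and DESeq2 gave -0.078 for Mpo and -0.0020 for Ctsg. DESeq2 without miR-99 KD 1 gave -0.81 for Mpo, -0.80 for Elane and Ctsg, -0.51 for Prtn3, -0.22 for Ngp, -0.31 for Ltf and S100a8, -0.32 for Camp and -0.049 for S100a9. The log2 ratio of later over primary per kilobase was 1.95 in Scr 1, 0.44 in Scr 2 and 1.90 in miR-99 KD 2. With a mean of logs, Scr 1 and miR-99 KD 2 exchanged places by a small margin, at 0.926 and 0.928. Under the other scalings 0 members had groups that did not overlap.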
